A study of Mus musculus with 4 samples.

Results

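The nuclear-encoded subunits of the respiratory chain and of the ATP synthase were followed over 4 microarray libraries of mDCT cells, an immortalised line from the mouse distal convoluted tubule that overexpressed a human mineralocorticoid receptor (MR) after transfection. Members were all genes whose symbol starts with Nduf, Uqcr, Atp5, Cox4, Cox5, Cox6, Cox7 or Cox8, together with Sdha, Sdhb, Sdhc, Sdhd and Cyc1. They came to 91 genes of the 18193 with a probe set of a single symbol, with 180 probe sets among them, and each gene was represented by its brightest probe set. By name the rule also takes in 8 complex I assembly factors (the Ndufaf genes), which build the enzyme and are not subunits of it. They are kept apart below, as are Ndufa4 and Ndufa4l2, which bear a complex I name and are counted here with complex IV.

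The libraries, 1 of each kind, came from MR-transfected cells given 5 µM spironolactone for 2 h and then 100 nM aldosterone for 3 h (called spironolactone below), ethanol alone, 1 nM aldosterone for 3 h, and 100 nM aldosterone for 3 h. All libraries came from cells transfected with the FLAG-tagged human receptor, an overexpressed protein from another species. The 2 h pretreatment began 48 h after transfection, with ethanol in place of the drug where none was given. Aldosterone or ethanol followed for 3 h. Aldosterone is the adrenal hormone that activates MR and spironolactone is an antagonist of that receptor; no library received spironolactone by itself. With 1 library a treatment no difference can be set against replicate error, so no p-value or interval is given, and every fold below is one between 2 libraries.

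Electrons from NADH enter the chain at complex I and those from succinate at complex II. Complex III passes them to cytochrome c and complex IV to oxygen. Complexes I, III and IV pump protons as they work, and the ATP synthase, complex V, lets the protons back through its membrane part (Fo) to drive ATP formation in its catalytic head (F1). Tubule cells of the distal nephron are rich in mitochondria, since the sodium pump that aldosterone stimulates runs on ATP. Most subunits are encoded in the nucleus, and their promoters are known for sites of NRF1, of ETS factors such as GABPA, and of YY1.

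Promoter windows from RefSeq (GRCm38.p6), reaching from 250 bases before to 50 bases after the start, were at hand for 74 of the 91 members. The windows shown are that of Atp5md, the bright member that differed most between libraries, and those of the members described below that hold at least 2 of the motif kinds searched for NRF1 (GCGCANGCG), ETS (CCGGAAG) and YY1 (AANATGGCG), on either strand. Capitals mark matches to these motifs (overlapping ones run together) and, in Atp5md, to AGAACA, the hexamer to which one receptor of a steroid receptor dimer binds. The motifs and the search were chosen after the expression values were seen, and longer forms of the NRF1 motif and of the receptor palindrome given below were searched first and then replaced by the shorter cores reported here. They lie at chr19:47090598-47090897 (minus strand, Atp5md), chr5:115348909-115349208 (minus strand, Cox6a1), chr11:120098684-120098983 (plus strand, Ndufaf8) and chr9:50603800-50604099 (minus strand, Sdhd).
Atp5md: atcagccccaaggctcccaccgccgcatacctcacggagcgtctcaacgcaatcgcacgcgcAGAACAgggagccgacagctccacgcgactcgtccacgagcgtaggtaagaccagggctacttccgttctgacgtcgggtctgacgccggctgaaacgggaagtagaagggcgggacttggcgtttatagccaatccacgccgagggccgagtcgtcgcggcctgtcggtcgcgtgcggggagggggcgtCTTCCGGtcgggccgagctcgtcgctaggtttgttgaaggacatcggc
Cox6a1: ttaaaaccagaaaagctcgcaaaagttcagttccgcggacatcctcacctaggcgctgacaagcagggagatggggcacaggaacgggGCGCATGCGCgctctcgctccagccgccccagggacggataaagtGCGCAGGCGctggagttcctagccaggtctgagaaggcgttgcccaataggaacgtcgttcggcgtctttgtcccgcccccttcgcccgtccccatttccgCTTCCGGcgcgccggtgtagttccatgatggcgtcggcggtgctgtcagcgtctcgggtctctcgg
Ndufaf8: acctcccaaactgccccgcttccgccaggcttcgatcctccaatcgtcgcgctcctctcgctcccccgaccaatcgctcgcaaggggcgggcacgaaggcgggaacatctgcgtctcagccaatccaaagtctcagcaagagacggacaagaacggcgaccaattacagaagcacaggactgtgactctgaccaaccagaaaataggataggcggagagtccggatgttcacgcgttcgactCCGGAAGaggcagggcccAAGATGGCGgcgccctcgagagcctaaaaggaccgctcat
Sdhd: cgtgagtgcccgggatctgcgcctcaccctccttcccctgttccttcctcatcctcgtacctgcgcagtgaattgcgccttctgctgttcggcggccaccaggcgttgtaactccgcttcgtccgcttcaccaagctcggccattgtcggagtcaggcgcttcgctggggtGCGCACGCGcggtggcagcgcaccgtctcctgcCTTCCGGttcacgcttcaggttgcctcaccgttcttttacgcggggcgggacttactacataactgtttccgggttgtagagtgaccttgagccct

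The NRF1 motif was in 26.6% of the 79 member windows, against 13.5% of the 11533 windows of genes that entered the comparisons and 6.25% of all 32851 windows. The ETS motif was in 24.1% of member windows, 17.8% of windows of entered genes and 8.86% of all windows. The YY1 motif was in 12.7% of member windows, 5.12% of windows of entered genes and 2.38% of all. All 3 were thus more frequent in member windows. Counted by gene, the NRF1 motif lay in a window of 1437 of 8981 entered genes with a window and of 27.0% of members with one. It lay in those of 6 of 31 complex I genes, 2 of 7 complex I assembly factors, 2 of 3 complex II genes, 2 of 5 complex III genes, 1 of 13 complex IV genes and 7 of 15 ATP synthase genes. The median G+C content was 59.0% in member windows and 61.3% in those of entered genes. AGAACA was in 13.9% of member windows, 11.8% of windows of entered genes and 19.0% of all. ACANNNTGT, the core of the palindrome to which the receptor dimer binds, was in 0 of the 79 member windows, 3.89% of windows of entered genes and 6.85% of all. Both strands were searched for each motif. A match describes the letters of these windows and does not show binding.

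The deposited values are MAS5 signals on a linear scale, and differences are given on the log2 scale. A gene entered the comparisons when its mean log2 signal reached 55.9 in signal, the middle value of the probe sets, which 11057 genes did. Of the members 85 entered, 80 of them above the 75th percentile of signal (420) and 69 above the 95th (3737). The 6 below the filter were Ndufb4, Cox4i2, Cox6b2, Cox7b2, Cox8b and Ndufa4l2. Ndufb4 rests on 1 probe set, with 22.2 with spironolactone, 32.1 in ethanol, 36.3 with 1 nM and 27.0 with 100 nM. Probe sets with several symbols were left out, and a low signal of 1 probe set does not show that a transcript is absent. The median signal of the entered members was 7482 with spironolactone, 7540 in ethanol, 7173 with 1 nM and 7478 with 100 nM aldosterone. Over the entered members the lowest Pearson correlation of log2 signal between libraries was 0.997, and over all entered genes it was 0.991. Of the distal convoluted tubule markers, Slc12a3, the sodium chloride cotransporter that defines the segment, and Calb1 lay under the filter. Pvalb, Trpm6, Wnk4, Stk39 and Sgk1 entered, and Klhl3 had no probe set of 1 symbol. Pvalb lay around the filter, with 38.3 with spironolactone, 51.4 in ethanol, 91.5 with 1 nM and 61.1 with 100 nM. Sgk1 differed between treatments, with 1424, 801, 935 and 1810 in the same order. Slc12a3 had signals of 4.35 with spironolactone, 3.93 in ethanol, 17.2 with 1 nM and 12.1 with 100 nM aldosterone. Of 4 proximal tubule markers 4 entered, of 4 principal cell, 3 intercalated cell and 4 fibroblast markers 0, and of 4 epithelial markers Epcam alone. Of 3 endothelial markers Kdr alone entered and of 3 leukocyte markers Cd68 alone, both near the filter. The proximal markers Slc34a1 and Slc5a2 also lay around the filter, with lowest signals of 44.6 (spironolactone) and 45.4 (ethanol). Lrp2 was the brightest proximal marker, with 519 with spironolactone, 567 in ethanol, 519 with 1 nM and 463 with 100 nM. The summed signal of the proximal markers was 737 with spironolactone, 768 in ethanol, 752 with 1 nM and 685 with 100 nM; their part in the results was not tested. In these bulk libraries fewer cells of a type and less RNA per cell cannot be told apart.

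As a group the subunits differed little between treatments. A gene is called higher or lower below when 2 libraries differed by at least 1.2-fold, a small step chosen because bright probe sets vary little. For spironolactone against 100 nM aldosterone alone, 1 member (Ndufaf6) was higher and 3 (Cox7a1, Cox7a2l and Ndufb1) were lower, which is 1 and 3 of 85 where 8.95% and 10.7% of all entered genes passed. For spironolactone against ethanol 2 members were higher and 2 lower, where 8.52% and 10% of all genes passed. For 1 nM aldosterone against ethanol 3 were higher and 1 lower, where 10.3% and 9.96% passed, and for 100 nM against ethanol 3 were higher and 2 lower, where 9.36% and 9.32% passed. For 100 nM against 1 nM aldosterone 1 was higher and 1 lower, where 9.18% and 9.14% passed. These shares are not matched for brightness. Of the 1363 genes above the 95th percentile of signal, between 0.367% and 1.25% passed in each direction of the 5 comparisons. Of the 69 members that bright, 0, 1, 1, 2 and 1 were higher and 1, 0, 0, 0 and 0 lower, in the order given here. At 1.5-fold Cox8c alone was called, higher with 1 nM aldosterone than in ethanol, where 2.61% of all genes passed higher and 2.07% lower. The other comparisons had 0 members past 1.5-fold. Among all genes 1.83% passed higher and 2.51% lower for spironolactone against 100 nM aldosterone alone, and 2.17% and 2.03% for spironolactone against ethanol. They were 2.39% and 1.72% for 100 nM against ethanol, and 2.04% and 1.96% for 100 nM against 1 nM.

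The median difference over the 85 members was -0.01 for spironolactone against 100 nM aldosterone alone, -0.005 for spironolactone against ethanol, -0.02 for 1 nM and 0.01 for 100 nM aldosterone against ethanol, and 0.03 for 100 nM against 1 nM. The medians over all entered genes were -0.003, -0.007, -0.006, -0.005 and 0.005 in the same order. The member median was within 0.05 of 0 in each of the 5 comparisons. The comparisons share libraries, 3 of them the ethanol library and 3 the 100 nM library, so they are not independent of each other.

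**Figure D1:**
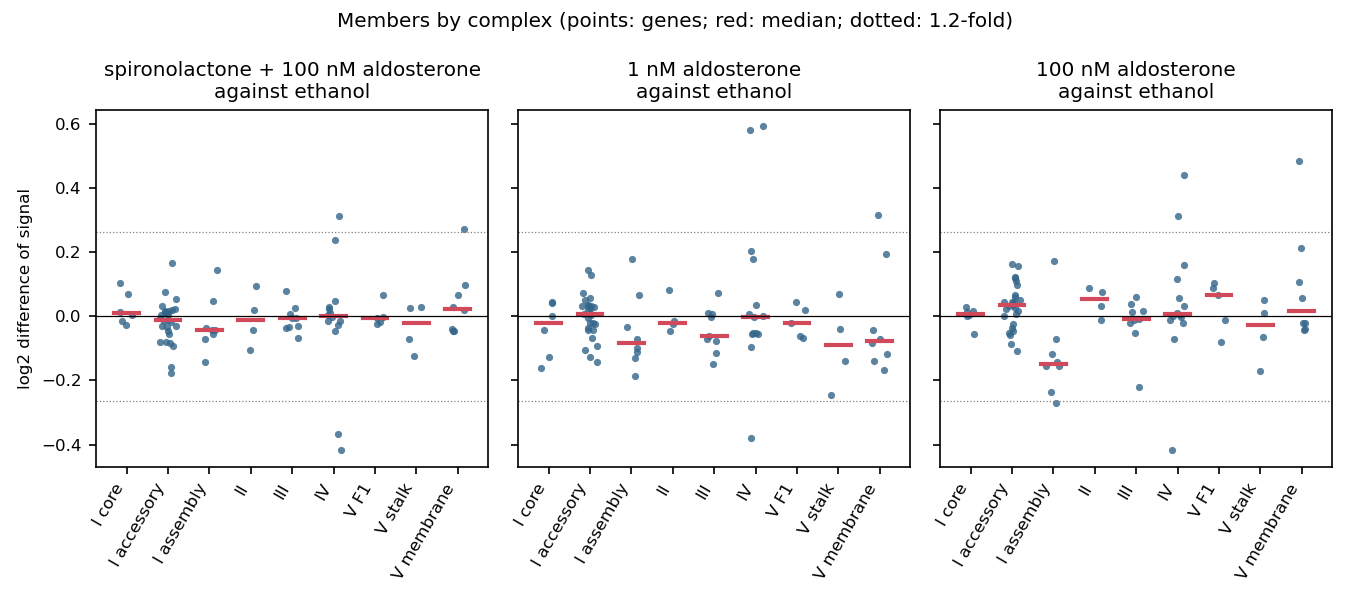
Log2 difference of signal from the ethanol library for the 85 members that entered (points), grouped by complex and role on the horizontal axis, for spironolactone plus 100 nM aldosterone, 1 nM aldosterone and 100 nM aldosterone; red bars are group medians and dotted lines mark 1.2-fold. Most points lie between the dotted lines, the complex I assembly factors have the lowest median with 100 nM aldosterone (-0.15), and the highest point of the membrane part of complex V is Atp5md.

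Between the highest and the lowest of the 4 libraries, 9 of the 85 members differed by at least 1.2-fold, where 41.8% of all entered genes did, and 2 (Cox7a1 and Cox8c) by at least 1.5-fold, where 12.1% did. Set beside genes above the 95th percentile of signal, a group added after seeing the data, the shares were close: 3 of the 69 members there, or 4.35%, differed by 1.2-fold or more, as did 3.96% of the 1363 genes. The 3 were Atp5md, Cox7a2l and Atp5g2. The median range of log2 signal was 0.11 over all entered members, 0.09 over the 69 bright ones and 0.10 over all genes that bright. Mitochondrial ribosomal proteins (Mrpl and Mrps, 73 genes) had a median range of 0.10 and cytosolic ribosomal proteins (45 genes) of 0.09. The brightest member, Uqcrb, had a mean signal of 25324, and the highest signal of any probe set in a library was between 34509 and 36340; whether signal is compressed near the top of the scale was not tested.

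**Figure D2:**
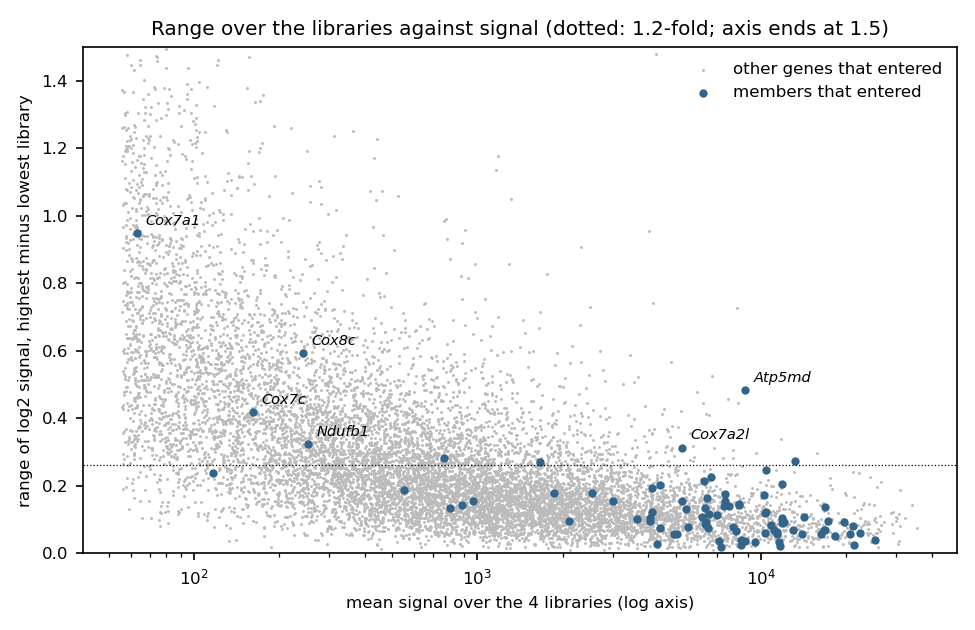
Range of log2 signal between the highest and the lowest of the 4 libraries (vertical axis) against mean signal (horizontal log axis) for the 85 members (blue) and the other genes that entered (grey); the dotted line marks 1.2-fold, and 87 other genes lie above the axis. The members sit at the bright end, and Atp5md stands out there with a range of 0.48 at a mean signal of 8795.

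Complex I, the NADH dehydrogenase, had 33 subunits that entered. Differences lay between -0.29 and 0.20 for spironolactone against 100 nM aldosterone alone, between -0.18 and 0.17 for spironolactone against ethanol, between -0.16 and 0.15 for 1 nM aldosterone against ethanol, and between -0.11 and 0.16 for 100 nM against ethanol. With 100 nM aldosterone 24 of the 33 were above ethanol by any amount, where 48.7% of all genes were, with a median of 0.03. With spironolactone 11 of 33 were above 100 nM aldosterone alone, where 49.3% of all genes were, with a median of -0.03. Both comparisons contain the 100 nM library, which was the highest of the 4 for 16 of these 33 genes (all genes: 25.5%). Over members of all complexes, 47 had a second probe set above the filter. For 100 nM against ethanol 30 of these had the same sign in both. Their median there was 0.008 by the probe set used and -0.007 by the second. For spironolactone against 100 nM alone 27 had the same sign, with medians of -0.02 and -0.03. How far the complex I counts rest on the probe sets used was not tested.

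Among the core subunits, which carry the flavin and iron-sulphur clusters, Ndufv1, the NADH-binding subunit, had signals of 7793 with spironolactone, 7713 in ethanol, 6899 with 1 nM and 7433 with 100 nM aldosterone. Ndufs7, an iron-sulphur subunit near the quinone site, had 6488 with spironolactone, 6466 in ethanol, 5917 with 1 nM and 6480 with 100 nM. Both were lowest in the 1 nM library, by -0.16 and -0.13 against ethanol. The other Ndufv1 probe sets differed by -0.16 and -0.10 there, while the second Ndufs7 probe set differed by 0.07. Ndufs8, the brightest core subunit and another iron-sulphur protein, had 11456 with spironolactone, 10913 in ethanol, 11259 with 1 nM and 10920 with 100 nM.

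Of the accessory subunits, which surround the core, Ndufa12 had 13154 with spironolactone, 11732 in ethanol, 11397 with 1 nM and 11433 with 100 nM aldosterone. The spironolactone library was thus the highest, by 0.20 over 100 nM aldosterone alone, but its next 2 probe sets differed by -0.03 and -0.01, so the difference rests on 1 probe set. Ndufb1, a small subunit of the membrane arm with a dim probe set, had 220 with spironolactone, 249 in ethanol, 276 with 1 nM and 269 with 100 nM, which made it 1.22-fold lower with spironolactone than with 100 nM alone. The brightest accessory subunit, Ndufc1, had 13672 with spironolactone, 14455 in ethanol, 14102 with 1 nM and 14722 with 100 nM.

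Of the complex I assembly factors, with 100 nM aldosterone 7 of the 8 were below ethanol by any amount (all genes: 51.3%), with a median of -0.15, and only Ndufaf1, named after its values were seen, was above it (0.17). The 100 nM library was the lowest of the 4 for 6 of them, where it was for 25.2% of all genes. With spironolactone 7 of 8 were above 100 nM aldosterone alone, with a median of 0.07, where 49.3% of all genes were; this share and that for 100 nM against ethanol rest on the same 100 nM library. Against ethanol, 2 of 8 were above with spironolactone, where 48.2% of all genes were.

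Ndufaf4, a chaperone-like factor of early complex I assembly, had 1738 with spironolactone, 1783 in ethanol, 1665 with 1 nM and 1478 with 100 nM aldosterone. Its second probe set had 783, 821, 752 and 727 in the same order, so both probe sets were lowest with 100 nM, by -0.27 and -0.18 against ethanol. Ndufaf6 had 822 with spironolactone, 794 in ethanol, 757 with 1 nM and 675 with 100 nM, which made it 1.22-fold higher with spironolactone than with 100 nM alone. Ndufaf8, the brightest of these factors, had 3041 with spironolactone, 3132 in ethanol, 3060 with 1 nM and 2811 with 100 nM. Its dimmer second probe set was instead highest with 100 nM, at 483, against 363 in ethanol, a difference of 0.41 where the first gave -0.16. The assembly factors were dimmer than the subunits, with a median signal of 923 against 7234 for complex I, levels that depend on the probe sets as well as on the transcripts.

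**Figure D3:**
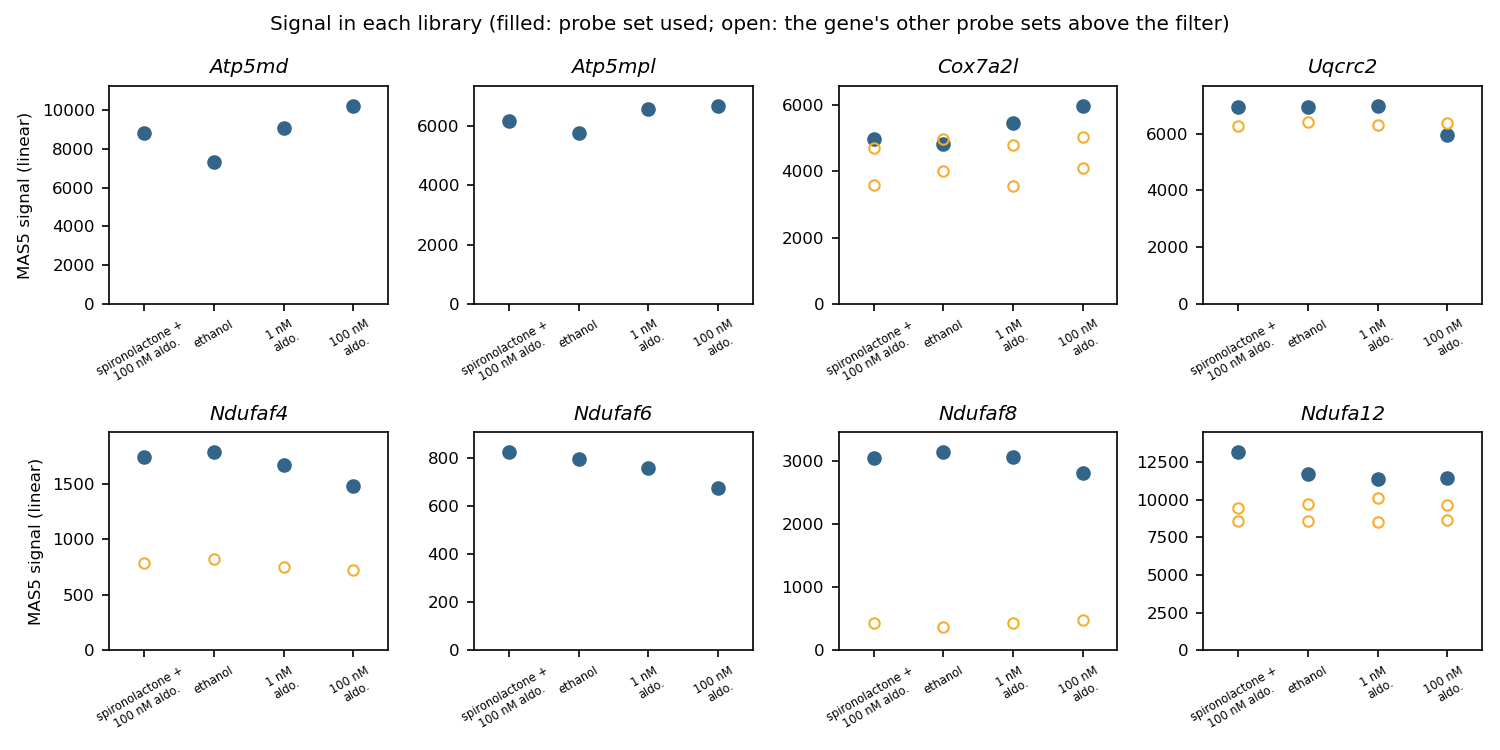
MAS5 signal on a linear axis from 0 in each of the 4 libraries for 8 members, with the probe set used filled and the gene's other probe sets above the filter open. Atp5md is lowest in ethanol (7305) and highest with 100 nM aldosterone (10216); Ndufaf4 and Ndufaf6 are lowest with 100 nM; for Cox7a2l, Uqcrc2, Ndufaf8 and Ndufa12 the open symbols do not follow the filled ones.

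Complex II, succinate dehydrogenase, consists of the 4 nuclear-encoded Sdh subunits. By the probe sets used, all stayed within 1.2-fold over the 4 libraries. Sdhd, a membrane anchor whose promoter window above holds an NRF1 and an ETS match, had 3869 with spironolactone, 4157 in ethanol, 4116 with 1 nM and 4424 with 100 nM aldosterone. Spironolactone gave the lowest and 100 nM the highest Sdhd signal, a difference of -0.19, and the second Sdhd probe set differed by -0.10. In that second probe set ethanol was the lowest library, with 913 with spironolactone, 821 in ethanol, 946 with 1 nM and 981 with 100 nM, so the low place of spironolactone against ethanol was not shared. Sdhc, the other anchor, had 2147 with spironolactone, 2010 in ethanol, 2128 with 1 nM and 2121 with 100 nM. Its second probe set had 959, 1017, 826 and 998 in the same order. That one differed by -0.30 for 1 nM against ethanol, past 1.2-fold, where the first gave 0.08. Sdhb, the iron-sulphur subunit and the brightest, had 8316 with spironolactone, 8200 in ethanol, 7940 with 1 nM and 8144 with 100 nM.

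Complex III, the cytochrome bc1 complex, had 9 members, all within 1.2-fold by the probe sets used. Uqcrc2, a core protein, had 6933 with spironolactone, 6953 in ethanol, 6983 with 1 nM and 5969 with 100 nM aldosterone. The 100 nM library was the lowest, by -0.22 against ethanol, but the second Uqcrc2 probe set had 6275, 6412, 6292 and 6376 in the same order and did not share it. Uqcrc1, the other core protein, had 7688 with spironolactone, 7656 in ethanol, 6906 with 1 nM and 7601 with 100 nM. Uqcrb, a subunit near the quinone site and the brightest member of all, had 24852 with spironolactone, 25356 in ethanol, 25526 with 1 nM and 25570 with 100 nM.

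In complex IV, cytochrome c oxidase, 14 of 19 members entered, with a median range of 0.06. The isoforms known as the widely expressed ones all lay above the 95th percentile of signal. Cox4i1, a regulatory subunit to which ATP binds, had 18356 with spironolactone, 18545 in ethanol, 17880 with 1 nM and 18514 with 100 nM aldosterone. Cox6a1, the brightest member of the complex, had 22534 with spironolactone, 22556 in ethanol, 21772 with 1 nM and 22714 with 100 nM. Cox7a2 had 20544 with spironolactone, 20909 in ethanol, 20131 with 1 nM and 20927 with 100 nM. By the probe sets used, all 3 were lowest in the 1 nM library, by at most 0.06 below the highest. The second Cox6a1 probe set was instead lowest in ethanol, with 13532 against 13671 with 1 nM. The second Cox7a2 probe set was lowest with 1 nM, at 11373, beside 11374 with spironolactone. Cox6b1 had 14017 with spironolactone, 13798 in ethanol, 13810 with 1 nM and 14370 with 100 nM. Cox8a had 11677 with spironolactone, 11449 in ethanol, 11727 with 1 nM and 11492 with 100 nM, and Ndufa4 had 9470, 9447, 9495 and 9669 in the same order. Of these 6 genes the widest range of log2 signal was 0.06 by the probe sets used. In second probe sets, Cox6b1 differed by -0.13 for spironolactone against 100 nM alone, and Cox8a by 0.08 for 100 nM against 1 nM.

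The isoforms known from other tissues or conditions were dim. Cox4i2 (lung and hypoxia), Cox6b2 and Cox7b2 (testis), Cox8b (heart and muscle) and Ndufa4l2 (a target of hypoxia-inducible factor) lay below the filter in their mean, and no fold is given for them. Ndufa4l2 had 7.11 with spironolactone, 33.6 in ethanol, 27.0 with 1 nM and 8.69 with 100 nM aldosterone, all under the filter signal. Cox6a2 (heart and muscle) entered with 125 with spironolactone, 106 in ethanol, 122 with 1 nM and 115 with 100 nM. Cox7a1 (heart and muscle) had 45.6 with spironolactone, 58.9 in ethanol, 88.1 with 1 nM and 65.7 with 100 nM; its 1 nM library was highest, but the signals lie around the filter. Cox8c (testis) had 239 with spironolactone, 193 in ethanol, 291 with 1 nM and 262 with 100 nM. Ethanol was thus the lowest Cox8c library, and 1 nM aldosterone was 1.51-fold above it; its other probe set lay under the filter. None of the isoforms from other tissues reached the 75th percentile of signal.

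**Figure D4:**
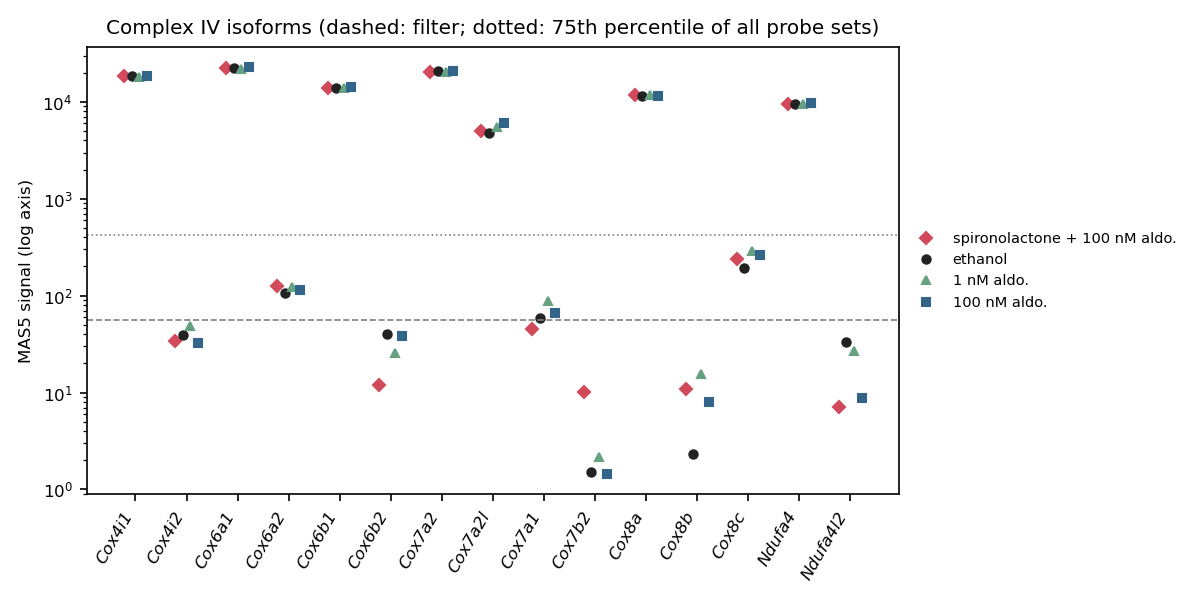
MAS5 signal (vertical log axis) of 15 complex IV isoform genes in the 4 libraries, with symbols by library, a dashed line at the filter signal of 55.9 and a dotted line at the 75th percentile of all probe sets (420). Cox4i1, Cox6a1, Cox6b1, Cox7a2, Cox7a2l, Cox8a and Ndufa4 lie far above both lines with their symbols close together, while the 8 others lie below the dotted line and scatter more between libraries.

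Cox7a2l, which links complexes III and IV into supercomplexes, had 4982 with spironolactone, 4814 in ethanol, 5452 with 1 nM and 5981 with 100 nM aldosterone. By that probe set both aldosterone libraries lay above both others, with spironolactone differing by -0.26 from 100 nM alone and 100 nM 1.24-fold above ethanol. Its other 2 probe sets had 4713 and 3586 with spironolactone, 4965 and 4012 in ethanol, 4799 and 3547 with 1 nM, and 5054 and 4088 with 100 nM. They differed by -0.10 and -0.19 for spironolactone against 100 nM alone and by 0.03 and 0.03 for 100 nM against ethanol, the same signs in smaller sizes. For 1 nM aldosterone against ethanol they differed by -0.05 and -0.18, where the first probe set gave 0.18, and for spironolactone against ethanol by -0.08 and -0.16, where the first gave 0.05. The order of both aldosterone libraries above both others was therefore not shared by the other probe sets. The probe set of Cox7c, named after its values were seen, was dim and lower in all 3 treated libraries, with 150 with spironolactone, 200 in ethanol, 154 with 1 nM and 150 with 100 nM; its other probe set lay under the filter.

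The ATP synthase had 17 members, all above the 95th percentile of signal, and it held the member with the widest range among bright ones. Atp5md, also known as DAPIT, is a small protein of the membrane part that holds ATP synthase dimers together. It had 8816 with spironolactone, 7305 in ethanol, 9092 with 1 nM and 10216 with 100 nM aldosterone. Ethanol was the lowest library, with spironolactone 1.21-fold, 1 nM aldosterone 1.24-fold and 100 nM 1.40-fold above it, and spironolactone differed by -0.21 from 100 nM alone. Of the 1363 genes above the 95th percentile, 8, Atp5md included, had a range at least as wide. It has 1 probe set, so no second one checks it, and its 3 differences from ethanol share the ethanol library.

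Atp5mpl, another small membrane-part protein found beside Atp5md in the enzyme and named after its values were seen, followed the same order in a smaller range. It had 6172 with spironolactone, 5767 in ethanol, 6598 with 1 nM and 6690 with 100 nM aldosterone, also from a single probe set. The differences from ethanol were 0.10, 0.19 and 0.21 in that order of treatments. None of the other 6 membrane-part subunits was above ethanol with 1 nM aldosterone; they differed by between -0.17 and -0.04.

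The proton-carrying c ring of Fo is encoded by Atp5g1, Atp5g2 and Atp5g3, whose mature proteins are the same. Atp5g2 had 13545 with spironolactone, 13278 in ethanol, 11836 with 1 nM and 14306 with 100 nM aldosterone, which put 100 nM 1.21-fold above 1 nM. Its dim second probe set had 51.3 with spironolactone, 94.8 in ethanol, 137 with 1 nM and 66.1 with 100 nM, the opposite sign between the doses (-1.05). Atp5g1 had 7452 with spironolactone, 7691 in ethanol, 6979 with 1 nM and 7478 with 100 nM, and Atp5g3 had 17442, 17203, 15867 and 16692 in the same order. All 3 were lowest in the 1 nM library. In the F1 head, Atp5b, the catalytic subunit and the brightest of the complex, had 21355 with spironolactone, 21693 in ethanol, 20800 with 1 nM and 20518 with 100 nM. The F1 members differed from ethanol by between -0.08 and 0.11 with 100 nM. In the peripheral stalk, Atp5o, named after its values were seen, had 10472 with spironolactone, 11415 in ethanol, 9620 with 1 nM and 10150 with 100 nM; its second probe set differed by 0.09 between 1 nM and ethanol, where the first gave -0.25, the opposite sign.

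Between the doses, 14 of the 17 ATP synthase members were higher with 100 nM than with 1 nM aldosterone, all 8 of the membrane part among them, with a median of 0.07. Over all 85 members 54 were higher, or 63.5%, where 51.3% of all entered genes were. Among the 69 members above the 95th percentile 53 were higher, or 76.8%, where 57.8% of all genes that bright were. Of the mitochondrial ribosomal proteins 52 of 73 were higher, or 71.2%, and of the cytosolic ones 32 of 45, or 71.1%. The 1 nM library was the lowest of the 4 for 31 of the 85 members, or 36.5%. It was also the lowest for 29 of 73 mitochondrial and 28 of 45 cytosolic ribosomal proteins. Among the 69 members above the 95th percentile it was the lowest for 30, or 43.5%, where it was for 32.8% of all genes that bright. All entered genes had their lowest value in that library in 26.3%. Low 1 nM values were thus seen in other bright gene families too, and what part the library itself has in them was not tested.

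The order of the libraries was also counted over the members, a description added after seeing the data. Both aldosterone libraries lay above both others for 20 of 85 members (all genes: 17.8%) and below both others for 18 (all genes: 18.4%). Signals went up from ethanol over 1 nM to 100 nM for 18 members (all genes: 16.1%) and down for 13 (all genes: 16.5%). The 100 nM library was the highest for 33 members, or 38.8% (all genes: 25.5%). Among the 69 members above the 95th percentile it was the highest for 33, or 47.8%, where it was for 28.4% of all genes that bright, and signals went up from ethanol over 1 nM to 100 nM for 18, or 26.1%, where they did for 16.8%. Members were thus most often highest with 100 nM aldosterone, as were mitochondrial ribosomal proteins (30 of 73), but not cytosolic ones (5 of 45).

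The genes that assemble, supply and regulate the chain were described from lists chosen with earlier results of these data known. Of 35 entered assembly factors and carriers outside the rule, 0 were higher and 1 lower for spironolactone against 100 nM aldosterone alone, 1 higher and 0 lower for spironolactone against ethanol, 3 higher and 0 lower for 1 nM and 3 higher and 1 lower for 100 nM aldosterone against ethanol, and 0 for 100 nM against 1 nM. In all entered genes between 8.52% and 10.7% passed in each direction of these comparisons, so the counts lie near or below that background. Timmdc1, a membrane factor of complex I assembly with the widest range on that list, had 744 with spironolactone, 709 in ethanol, 997 with 1 nM and 1005 with 100 nM. Both aldosterone libraries were apart from both others there, by 0.49 and 0.50 against ethanol, and spironolactone differed by -0.43 from 100 nM alone.

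Of the 16 regulators of mitochondrial biogenesis, 13 were higher by any amount with spironolactone than with 100 nM alone (median 0.07; all genes: 49.3%) and 3 were above ethanol with 100 nM (median -0.08; all genes: 48.7%). Both counts contain the 100 nM library. At 1.2-fold, 2 were higher for the first comparison (all genes: 8.95%) and 1 lower for the second (all genes: 9.32%). There was also 1 lower for 1 nM against ethanol (all genes: 9.96%), and 1 higher and 1 lower for 100 nM against 1 nM (all genes: 9.18% and 9.14%). The coactivator Ppargc1b, with the widest range and a dim probe set, had 152 with spironolactone, 160 in ethanol, 146 with 1 nM and 112 with 100 nM aldosterone. Of 15 citrate cycle enzymes, all above the 75th percentile of signal, 0 differed by 1.2-fold between any of the libraries. Of all entered genes 41.8% did, and of genes above the 75th percentile 20.8%. These shares are not matched for brightness: the enzymes had a median signal of 4155, and 3.96% of genes above the 95th percentile (3737) differed by that much. Dlat, a subunit of pyruvate dehydrogenase, had the widest range, with 2134 with spironolactone, 1951 in ethanol, 2243 with 1 nM and 2204 with 100 nM.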

How the data were processed

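The authors deposited probe set intensities on a linear scale for 4 arrays, made with MAS5, which the submitters' processing notes name without a version; no scaling target or detection calls were at hand. The mean signal of the middle probe sets, without 2% at each end, was 500.0 on each array, so no further scaling was applied. Of 45101 probe sets, 64 array controls were left out. The platform annotation gave 1 symbol for 34945 of the rest, and several for 932, which were given no name; a member symbol was among the several for 10. Entrez identifiers matched RefSeq for 34754 probe sets and changed 0 symbols. Each gene took its brightest probe set by mean log2 signal, and genes whose mean reached the middle value of the probe sets entered. Differences are log2 differences without pseudocount, computed in Python 3.11.15 with pandas 2.3.3. Each library was grouped by its treatment label, and columns of other samples numbered 0. With 1 array per treatment the number of arrays limits the precision.

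The code that counts calls was run on simulated data with known changes, which tests the arithmetic and not the calls. Motifs, the 95th percentile group and counts of library order were added after the data were seen. The members and the lists were chosen with earlier results of these data known. Members described with all values are, for each complex, the 2 with the widest range and the brightest, those past 1.5-fold, and the isoform families. The alternatives were the median of each gene's probe sets, leaving out probe sets that can cross-hybridise, quantile normalization, centring, no filter, a filter at the 75th percentile, and raising low signals to the filter.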

Additional observations from a re-analysis of the deposited data

How the results depend on the processing

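The median difference of the members moved by less than 0.05 under all 7 alternatives in all 5 comparisons. It lay between -0.02 and -0.002 for spironolactone against 100 nM aldosterone alone, between -0.02 and 0.02 for spironolactone against ethanol, between -0.03 and 0.006 for 1 nM aldosterone against ethanol, between 0.009 and 0.03 for 100 nM against ethanol, and between 0.02 and 0.04 for 100 nM against 1 nM. The counts of members past 1.2-fold are small, and 32 of 70 moved by over 1.5 times. Only the counts that moved are given here, and a direction left out kept its count to within 1.5 times. In the order of those comparisons, the median over probe sets gave 4 higher and 5 lower, 4 lower, 5 higher and 6 lower, 1 higher, and 4 higher and 4 lower. Without cross-hybridising probe sets, which left 78 members, there were 2 higher for the first, 3 lower for 1 nM against ethanol, and 3 higher and 2 lower between the doses. Quantile normalization and centring gave 0 higher between the doses, and centring 1 lower for 100 nM against ethanol. With no filter the counts were 3 higher and 6 lower, 4 higher and 5 lower, 6 higher and 3 lower, 4 lower, and 2 higher and 6 lower. With the filter at the 75th percentile, which left 80 members, they were 1 lower, 1 higher and 0 lower, 1 higher and 0 lower, 1 lower, and 0 lower. With low signals raised to the filter, 1 was lower for spironolactone against ethanol. The filters change which members enter; the other causes were not tested. Of 47 genes with a second probe set above the filter, between 23 and 30 had the same sign in both, depending on the comparison. No paired analysis was possible because each treatment has 1 library and the labels give no replicate numbers.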
